A study of Mus musculus with 59 samples.

Results

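The diaphragm, the sheet of muscle that draws air into the lungs, was compared with the tibialis anterior, a muscle at the front of the lower leg that lifts the foot, in mice whose tumour does not cause wasting. The comparison used 14 of the 59 libraries of the series, which were the 9 diaphragm libraries of the non-cachectic mock group and the 5 tibialis anterior libraries of the non-cachectic group. Libraries were chosen by their muscle, tumour and treatment labels and by no measured value. All came from female NCI Ath/nude mice 4 months old, an athymic strain that lacks mature T cells, and every mouse of both groups carried a human melanoma xenograft of the kind called non-cachectic (NONCAC). Neither group was therefore muscle of a tumour-free animal. The diaphragm group is the one without recombinant Fibcd1 (rFibcd1), for which the study describes mock injections, and the labels of the tibialis anterior group name no injection. RNA came from bulk muscle, so fewer cells of a type and less RNA per cell cannot be told apart. By the study's methods the diaphragm was cleared of its tendons, and a piece of its muscle gave the RNA while the rest was sectioned. The series as a whole set mice with a cachectic melanoma beside mice with a non-cachectic one in diaphragm, tibialis anterior and soleus, and tested rFibcd1 in the diaphragm.

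Skeletal muscle is a mosaic of slow fibres, which contract slowly and burn fuel with oxygen, and of fast fibres, which in the mouse run from type 2A through type 2X to type 2B with rising speed and rising reliance on glycolysis. Each type is known by its myosin heavy chain, and most other proteins of the contractile filaments and of calcium handling exist in a slow and a fast version. The diaphragm works with every breath throughout life, while the tibialis anterior works in bursts. Muscles also keep a record of where in the body they formed, in the Hox genes and other patterning genes, which are expressed in different sets along the axis of the trunk and the limbs.

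The values are TPM, reads divided by gene length and then by their sum, so that every library adds up to 1000000. Levels can therefore be compared between genes, but the sequencing depth is unknown. Genes above 0 numbered 18133 to 18844 per diaphragm library and 16436 to 17058 per tibialis anterior library. Mitochondrially encoded transcripts took 47.5% ± 2.97 of TPM in diaphragm (SD, n = 9) and 48.5% ± 1.80 in tibialis anterior (SD, n = 5), a difference that did not pass an exact two-sided permutation test (p = 0.526). One diaphragm library stood apart from the rest, since the 12 liver genes of a marker list summed to 11646 TPM there, against 33.7 to 989.9 TPM in the other 8 diaphragm libraries and 3.92 to 9.52 TPM in tibialis anterior. Its correlation with the other diaphragm libraries across the genes tested was 0.936 to 0.967, against 0.967 to 0.990 among those 8. A further 3 diaphragm libraries held Pcna-ps2, a processed pseudogene of the replication clamp gene Pcna, at 8.07 to 9.83 TPM, while the other 6 were listed at 0 and the tibialis anterior libraries reached at most 0.0387 TPM. Both sets of libraries were left out in turn, and what this changed is given below for some results only.

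Most genes tested differed between the muscles. Of 12370 genes tested with limma on log2(TPM + 1), 10103 (81.7%) passed a Benjamini-Hochberg adjusted p under 0.05, of which 8720 were higher in diaphragm (70.5% of the genes tested) and 1383 lower (11.2%). At a change of 2-fold or more there were 2391 higher genes (19.3%) and 244 lower ones (1.97%), against 1177 and 628 after median-ratio scaling and 815 and 517 under quantile normalization. The lopsided split moved with the scaling. The median gene was higher in diaphragm by 0.44 on the log2 scale in the TPM as deposited, and after median-ratio scaling, which sets that shift near 0 (to -0.04), 4473 genes were higher (36.2%) and 5151 lower (41.6%). The share of higher genes among the calls was thus 86.3% as deposited, 46.5% after median-ratio scaling and 41.7% under quantile normalization. Fold changes are on the log2(TPM + 1) scale, which understates the change of low genes. Each change below is a difference in share of the library's TPM, to be read against the 0.44 of the median gene, and a direction is given as such only where it held on both scales or the exception is named. The TPM ranges of both muscles did not overlap for 7824 genes (63.2%). Among the genes tested 1305 lay below 1 TPM in every tibialis anterior library and 36 in every diaphragm library. Such genes passed the filter on low values through the other muscle alone, which fixed their direction. Below they are counted apart and described by their levels and fold changes, with no p. Among the other 11029 genes 7443 were higher and 1347 lower. Genes that reached 1 TPM in fewer than 5 libraries of the lower muscle also needed the other muscle to pass. Myh7, Tnni1, Myh6 and Mettl11b are examples. They are counted with the other genes, and their p is no independent support for their direction. Without the library rich in liver transcripts, 10034 of 12269 genes were called. Library numbers 61 to 65 occur in both muscles, and the fit within those numbers, the replicate block, called 9668 of 11814 genes in the 5 pairs.

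The myosin heavy chains, the motors of the sarcomere, were divided differently in each muscle, with the 2X and 2A genes leading by transcript share in diaphragm and the 2B gene in tibialis anterior. Myh4, the type 2B myosin (chr11:67238029-67260446, GRCm38, positions from GENCODE M21), stood at 13.8 to 567 TPM (median 127) in diaphragm and at 13729, 7593, 12845, 11695 and 10026 TPM in the 5 tibialis anterior libraries (log2 fold change -6.22 ± 0.66 (SE), adjusted p = 5.16e-07). No diaphragm library came near any tibialis anterior library, although the diaphragm libraries themselves differed widely. Myh7, the slow myosin (chr14:54970684-54994626), was at 265 to 419 TPM (median 347) in diaphragm and at 0.46, 0.904, 0.271, 0.299 and 2.31 TPM in tibialis anterior (log2 fold change 7.63 ± 0.19 (SE), adjusted p = 3.06e-13). Myh2, the type 2A myosin, was at 2306 to 3334 TPM (median 2762) against 427, 1039, 352, 731 and 739.8 TPM (log2 fold change 2.15 ± 0.20 (SE), adjusted p = 1.27e-07). Myh1, the type 2X myosin, was abundant in both, at 3184 to 4925 TPM (median 4539) against 5432, 6064, 5599, 5257 and 6019 TPM, with no overlap. Its decrease (log2 fold change -0.36 ± 0.09 (SE), adjusted p = 0.00195) depended on the scaling in size and direction. It was -0.93 after median-ratio scaling (adjusted p = 1.29e-06) and 0.19 under quantile normalization, where it did not pass (adjusted p = 0.12). The summed level of the 4 genes was 7064 to 8655 TPM in diaphragm and 14697 to 19588 TPM in tibialis anterior, so Myh1 was lower in level and higher in share. In shares of the summed TPM of these 4 genes, the diaphragm held 57.3% ± 5.22 Myh1, 35.4% ± 5.18 Myh2, 4.45% ± 0.691 Myh7 and 2.81% ± 2.32 Myh4 (SD, n = 9). The tibialis anterior held 63.2% ± 7.54 Myh4, 32.9% ± 5.59 Myh1, 3.93% ± 2.09 Myh2 and 0.00508% ± 0.00522 Myh7 (SD, n = 5). Each of these 4 shares differed at an exact permutation p of 0.0004995 (adjusted p = 0.000749 over 6 shares), the smallest that 2002 regroupings can give. The soleus of mice with the same tumour, a postural muscle of the calf, held 61.7% Myh7 and 34.7% Myh2, against which the slow share of the diaphragm was small. Myh1, Myh2 and Myh4 lie side by side and are close in sequence, as are Myh7 and Myh6, so reads may have been divided between neighbours in a way that the table does not show.

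**Figure D1:**
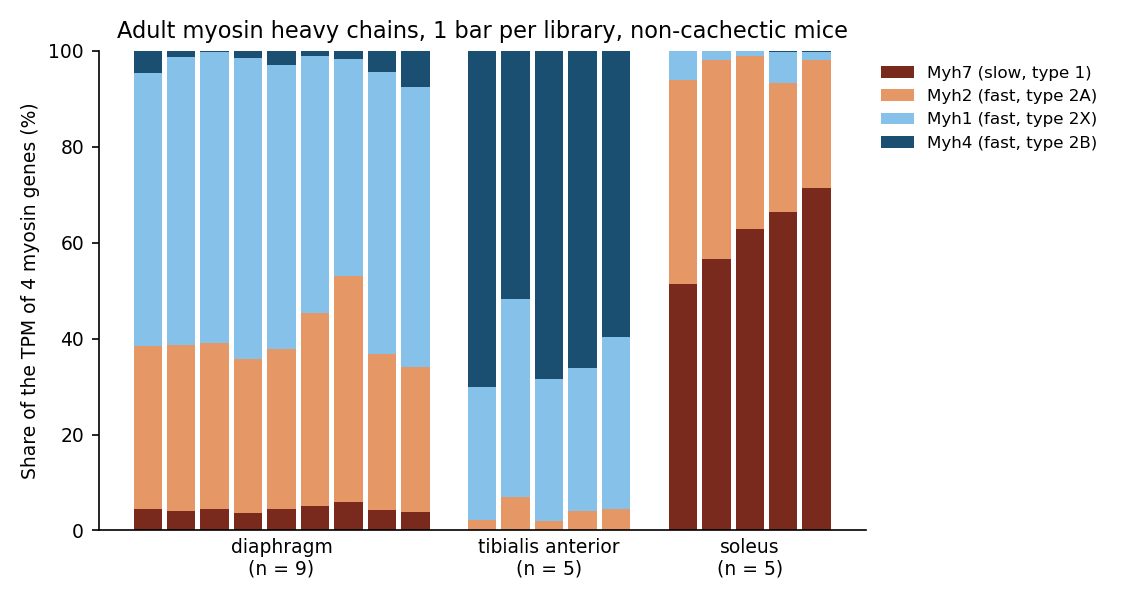
Share of the summed TPM of 4 adult myosin heavy chain genes in each library (vertical axis, %), with 1 bar per library, for 9 diaphragm, 5 tibialis anterior and 5 soleus libraries of non-cachectic mice. Myh1 and Myh2 fill most of every diaphragm bar, Myh4 takes 51.7% to 70.1% of every tibialis anterior bar, and Myh7 leads in soleus.

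The promoter windows of the 3 genes below belong to both ends of this difference, slow genes that were nearly silent in tibialis anterior and the 2B myosin that was low in diaphragm. Windows of 10 genes were read, and these 3 are shown because they are the genes of the 10 in which the MCAT letters, described next, were found. Each runs from 250 bases before to 50 bases after an annotated start (RefSeq, GRCm38.p6), 5′ to 3′ on the gene's strand. Capitals mark matches on either strand to the MCAT letters CATTCC, bound by TEAD factors, and to the TATA letters TATAAA. The Myh7 window is the first of its 2 annotated starts, at chr14:54994577-54994876 on the minus strand, the Tnnc1 window lies at chr14:31208062-31208361 on the plus strand and the Myh4 window at chr11:67237562-67237861 on the plus strand.
Myh7: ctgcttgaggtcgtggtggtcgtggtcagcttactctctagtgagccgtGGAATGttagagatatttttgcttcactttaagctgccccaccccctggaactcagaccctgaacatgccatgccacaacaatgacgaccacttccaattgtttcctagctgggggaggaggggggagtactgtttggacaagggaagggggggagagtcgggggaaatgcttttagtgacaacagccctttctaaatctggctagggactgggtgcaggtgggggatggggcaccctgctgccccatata
Tnnc1: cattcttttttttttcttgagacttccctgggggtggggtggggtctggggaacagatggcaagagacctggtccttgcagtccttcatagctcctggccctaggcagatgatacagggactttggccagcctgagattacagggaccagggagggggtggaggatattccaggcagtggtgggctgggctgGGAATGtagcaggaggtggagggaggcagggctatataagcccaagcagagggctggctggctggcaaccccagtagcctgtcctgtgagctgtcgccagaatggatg
Myh4: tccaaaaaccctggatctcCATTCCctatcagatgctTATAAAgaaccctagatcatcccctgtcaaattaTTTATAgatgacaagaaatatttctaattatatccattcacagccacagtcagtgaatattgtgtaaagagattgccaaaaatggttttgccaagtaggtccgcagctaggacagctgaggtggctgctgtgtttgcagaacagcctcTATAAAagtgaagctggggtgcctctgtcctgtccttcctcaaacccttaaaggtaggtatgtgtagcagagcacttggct
The MCAT letters occurred once in each of these windows and in none of the others read, at the second Myh7 start and in Tnni1, Tnnt1, Myl2, Mylpf, Pvalb, Slc16a3 and Hoxa5. They occurred in 14.7% of all 32851 promoter windows of that length. The TATA letters occurred 3 times in the Myh4 window and not in the Myh7 and Tnnc1 windows, against 13.6% of all windows with a match. E-box letters, CANNTG, were found 2 times in Myh7, 2 times in Tnnc1 and 3 times in Myh4, and in 72.3% of all windows. Of the fast genes listed below 10 had a window, 4 of them with the MCAT letters and 3 with the TATA letters, and of the slow genes 13 had one, with 3 and 3. These are matches of letters only.

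Beyond myosin, the slow contractile genes were higher in diaphragm and the fast ones lower. Of 15 genes on the slow-fibre list, which includes Actn2 although all fibres hold it, 14 were higher and 1 lower (median log2 fold change 4.93). Of 15 fast-fibre genes all 15 were lower (median -1.64). The median of all genes tested was 0.44, and 70.5% of them were higher and 11.2% lower. Median-ratio scaling gave 13 higher and 2 lower slow genes and left all 15 fast genes lower, and quantile normalization gave 12 higher slow genes and 11 lower fast genes with none the other way. In none of the 3 slow troponins, the calcium switch of the thin filament, did the muscles overlap. Tnnt1, which ties troponin to tropomyosin, was at 328 to 539 TPM (median 444) in diaphragm against 1.35, 3.46, 0.954, 1.45 and 3.77 TPM in tibialis anterior (log2 fold change 7.21 ± 0.19 (SE), adjusted p = 4.31e-13). Tnnc1, the calcium sensor shared by slow fibres and heart, was at 319.8 to 470.3 TPM (median 395) against 1.16, 2.87, 1.53, 1.16 and 5.05 TPM (log2 fold change 7.02 ± 0.20 (SE), adjusted p = 1.05e-12). Tnni1, the inhibitory subunit, was at 70.3 to 125 TPM (median 97.1) against 0.562, 1.18, 0.395, 0.525 and 1.45 TPM (log2 fold change 5.79 ± 0.15 (SE), adjusted p = 3.6e-13). The regulatory light chain Myl2 stood at 505 to 1262 TPM (median 752) against 5.48, 12.4, 3.35, 2.39 and 12.2 TPM (log2 fold change 6.73 ± 0.31 (SE), adjusted p = 1.52e-10). The slow tropomyosin Tpm3 stood at 164 to 249.9 TPM (median 200.1) against 5.88, 6.39, 4.27, 7.26 and 5.31 TPM (log2 fold change 4.93 ± 0.10 (SE), adjusted p = 3.31e-14). Smaller increases were seen in the essential light chain Myl3 (3.07 ± 0.15), the Z-disc protein Myoz2 (2.50 ± 0.20) and Myh7b (2.53 ± 0.16). The myosin binding protein Mybpc1 was the slow gene that was lower, by 0.28 on the log2 scale, at 1349 to 1639 TPM (median 1449) against 1845, 1788, 1810.2, 1633 and 1824 TPM, and quantile normalization gave 0.01. Actn2, the actinin of all fibres, was higher by only 0.25 (adjusted p = 0.0396), below the median gene. This became -0.31 after median-ratio scaling and did not pass without any 1 of 7 libraries (adjusted p up to 0.139) or with the replicate block (adjusted p = 0.135). With only the diaphragm libraries low in Pcna-ps2, 13 genes of the slow list were higher, 1 lower and 1 not called.

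Among the fast genes the largest decreases lay in a few members rather than evenly over the list. Actn3, the actinin found only in fast glycolytic fibres, was at 48.2 to 259 TPM (median 95.5) in diaphragm against 4116, 2243, 3569, 3709 and 2831 TPM in tibialis anterior (log2 fold change -4.98 ± 0.29 (SE), adjusted p = 1.22e-09). Pvalb, parvalbumin, which binds calcium in the cytoplasm and speeds relaxation, was at 317 to 893 TPM (median 650.4) against 12681, 7829.7, 11321, 11946 and 9388 TPM (log2 fold change -4.18 ± 0.24 (SE), adjusted p = 1.11e-09). Mylk4, of the myosin light chain kinase family, was at 31.5 to 96.1 TPM (median 65.8) against 861, 519, 831, 942 and 638 TPM (log2 fold change -3.54 ± 0.23 (SE), adjusted p = 3.84e-09). Mylk2, the kinase of the fast light chain, was at 94.6 to 185 TPM (median 149) against 956, 654, 864, 1157 and 750.3 TPM (log2 fold change -2.61 ± 0.18 (SE), adjusted p = 6.45e-09). Mybpc2, the fast myosin binding protein, changed by -2.26 ± 0.14. The fast troponins were abundant in both muscles, and the size of their decrease depended on the scaling. Tnnc2 was at 8015 to 10974 TPM (median 9464) against 13409, 11100.2, 13192, 13297 and 12562 TPM (-0.46 ± 0.08). Tnni2 was at 4284 to 5261 TPM (median 4631) against 6539, 6165, 6664, 6596 and 6187 TPM (-0.46 ± 0.05), and Tnnt3 at 9311 to 13117 TPM (median 11053) against 16494, 13049, 16477, 16969 and 16656 TPM (-0.56 ± 0.09). Tnnt3 overlapped between the muscles. After median-ratio scaling the changes were -1.03 for Tnnc2, -1.03 for Tnni2 and -1.13 for Tnnt3, all called, while quantile normalization turned Tnni2 to 0.05 and left Tnnc2 at -0.00118 and Tnnt3 at -0.13, none of which passed there (adjusted p = 0.46, 0.984 and 0.102). The light chains Mylpf (-1.18 ± 0.09) and Myl1 (-1.52 ± 0.08) and the Z-disc protein Myoz1 (-1.64 ± 0.09) lay between these extremes.

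Set side by side, the slow and fast members of one function did not shift to the same extent, a comparison chosen after the values were seen and given with no test. The slow member took a median of 2.12% of the troponin I pair (Tnni1 and Tnni2) in diaphragm and 3.85% of the troponin T pair (Tnnt1 and Tnnt3). It took 4.17% of the troponin C pair (Tnnc1 and Tnnc2) and 4.37% of the myosins (Myh7 of Myh7, Myh4, Myh1 and Myh2). Higher shares were 11.2% of the regulatory light chain pair (Myl2 and Mylpf), 15.3% of the essential light chain pair (Myl3 and Myl1) and 24.6% of the myozenin pair (Myoz2 and Myoz1). In tibialis anterior the same shares had medians of 0.00859%, 0.00855%, 0.0116%, 0.00235%, 0.0427%, 0.651% and 1.47% in that order. Every diaphragm library lay above every tibialis anterior library in each of these shares and below every soleus library, where the medians ran from 44.6% for troponin I to 82.1% for the essential light chains.

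**Figure D2:**
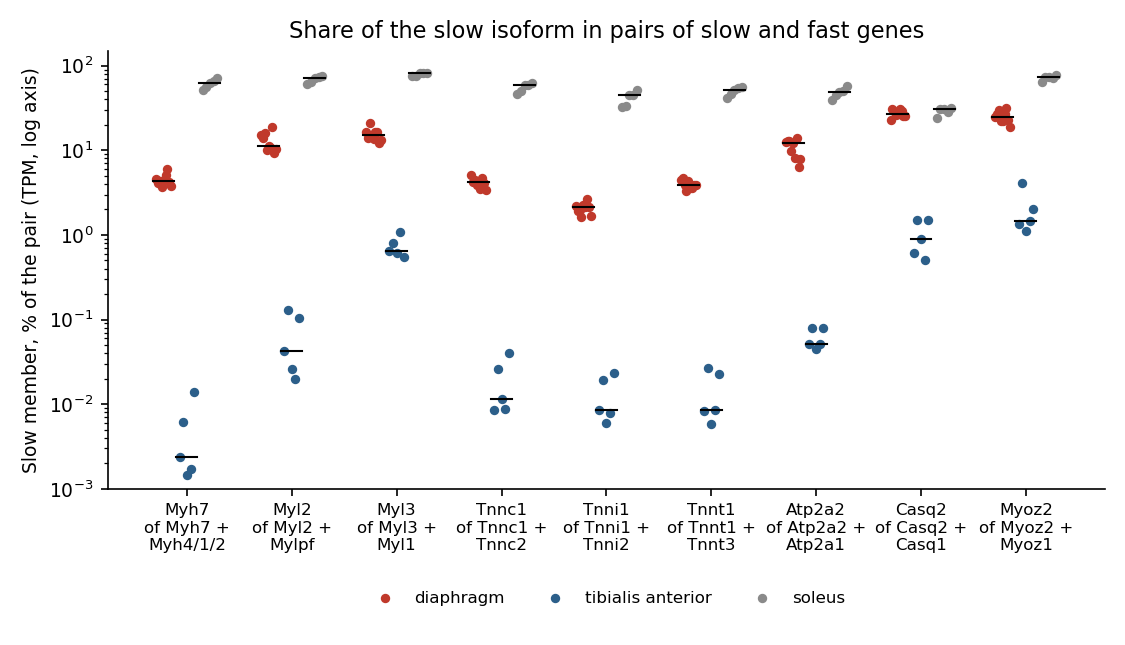
Share of the slow member in pairs of slow and fast genes (vertical axis, % of the summed TPM of the pair, log axis), with 1 point per library and a line at each group's median. The diaphragm points sit between tibialis anterior and soleus for each pair except calsequestrin (Casq2 and Casq1), where diaphragm and soleus overlap.

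The pumps that clear calcium differed between the muscles, and so did some of the peptides that regulate them. Atp2a2, the slow and cardiac pump that returns calcium to the sarcoplasmic reticulum (SERCA2), was at 374 to 856 TPM (median 757) in diaphragm against 8.75, 11, 7.48, 8.56 and 11.8 TPM in tibialis anterior (log2 fold change 5.98 ± 0.19 (SE), adjusted p = 3.71e-12). The fast pump Atp2a1 (SERCA1) was at 5049 to 6225 TPM (median 5724) against 17189.7, 13859, 16796, 16544 and 14991 TPM (log2 fold change -1.49 ± 0.07 (SE), adjusted p = 9.77e-11). SERCA2 thus took a median of 12.1% of both pumps in diaphragm (range 6.30% to 13.9%), 0.0517% in tibialis anterior and 49.2% in soleus. Small membrane peptides set the activity of these pumps, and the gene with the largest increase of all that qualified for naming was one of them. Sln, sarcolipin, which inhibits and uncouples the pump (chr9:53850164-53854560), was at 871 to 1785 TPM (median 1099) in diaphragm against 1.5, 2.34, 1.99, 1.51 and 2.36 TPM in tibialis anterior (log2 fold change 8.67 ± 0.17 (SE), adjusted p = 1.59e-14), a ratio of means of 630.1. Its diaphragm level was also above that of soleus (307 to 569 TPM in 5 libraries), with no overlap. Gm34302 (chr3:63481112-63483879), below 1 TPM in every tibialis anterior library, is what RefSeq names Strit1 or DWORF, a peptide known to activate the pump. It was at 64.1 to 99 TPM (median 78.9) against 0.198, 0, 0.234, 0.199 and 0.601 TPM (log2 fold change 6.03 ± 0.12). It reached 557 to 859.8 TPM in soleus. Pln, phospholamban, another inhibitor, was low in both, at 3.02 to 13.2 TPM (median 5.43) against 1.75, 2.62, 1.81, 1.5 and 2.51 TPM (log2 fold change 1.13 ± 0.23 (SE), adjusted p = 0.000344). Mrln, myoregulin, looked at after its values were seen, did not pass the test, at 15.3 to 25.5 TPM (median 20.9) against 22.8, 19.2, 34.7, 29.2 and 23.4 TPM (adjusted p = 0.0777). It was lower with the replicate block, at -0.38 (adjusted p = 0.0492). The level of sarcolipin was thus higher in diaphragm, and Pln was higher by less.

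Genes of the calcium store and of the trigger of its release were mostly lower in diaphragm. Casq1, the fast calsequestrin that holds calcium inside the reticulum, was at 501 to 822 TPM (median 681) against 2949, 1759.7, 2495, 2729.6 and 2169.9 TPM (log2 fold change -1.84 ± 0.14 (SE), adjusted p = 1.51e-08). Casq2, the cardiac form, was at 174 to 352 TPM (median 243) against 18, 27.2, 22.4, 13.8 and 33.3 TPM (log2 fold change 3.44 ± 0.19 (SE), adjusted p = 8.83e-10). Casq2 made up a median of 26.5% of both in diaphragm and 30.8% in soleus, and the 2 muscles overlapped in this share alone among the 9 pairs. Of 22 genes of excitation-contraction coupling 17 were lower in diaphragm and 3 higher, beside 11.2% and 70.5% of all genes tested, and 20 were lower and 2 higher after median-ratio scaling. Without Ryr3, which passed the filter through the diaphragm alone, 17 of 21 were lower and 2 higher, beside 1347 and 7443 of the 11029 counted likewise. The largest decreases were in Cacng1, a subunit of the voltage sensor, at 22.6 to 39.6 TPM (median 28.6) against 237, 165, 261, 275 and 179 TPM (log2 fold change -2.81 ± 0.15 (SE), adjusted p = 3.89e-10), and in Trdn. Trdn, triadin, which anchors calsequestrin to the release channel, was at 83.4 to 115 TPM (median 97.3) against 383, 281, 316, 345 and 324 TPM (log2 fold change -1.78 ± 0.09 (SE), adjusted p = 2.11e-10). Ryr3, a second isoform of the release channel that stayed below 1 TPM in every tibialis anterior library, was at 1.52 to 2.63 TPM (median 2.25) against 0.0435, 0.03, 0.0578, 0.0411 and 0.044 TPM (log2 fold change 1.60 ± 0.08). It stood at 0.355 ± 0.202 TPM in soleus (SD, n = 5). The inward rectifier Kcnj2 was higher by 0.95 ± 0.16 and overlapped between muscles. Kcnc4, a fast-inactivating potassium channel outside this list and among the 12 largest decreases, was at 3.38 to 8.29 TPM (median 5.53) against 133, 77.4, 120.2, 126 and 90.3 TPM (log2 fold change -4.07 ± 0.19 (SE), adjusted p = 1.51e-10). Atp1b2, a subunit of the sodium pump, was at 7.3 to 13.7 TPM (median 9.62) against 127, 99, 111, 134 and 114 TPM (log2 fold change -3.44 ± 0.14 (SE), adjusted p = 4.92e-11).

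Of 8 developmental and other sarcomere genes tested 3 were higher and 2 lower, beside 70.5% and 11.2% of all genes, and among the 7 other than Tnnt2 there were 2 and 2. Myh6, the atrial myosin, was at 50.5 to 84.4 TPM (median 70.3) against 0.25, 1.53, 0.421, 0.283 and 1.9 TPM (log2 fold change 5.25 ± 0.20 (SE), adjusted p = 2.46e-11). Myh2, given above, and Tnnt2, cardiac troponin T (0.63 ± 0.16, turning to -0.09 under quantile normalization), were the other increases. Tnnt2 was below 1 TPM in every tibialis anterior library. Actc1, cardiac actin, was lower, at 3.67 to 44.4 TPM (median 11) against 54.9, 95.2, 102, 33 and 159.9 TPM (log2 fold change -2.55 ± 0.53 (SE), adjusted p = 0.000392), with overlap. So was Mybph, a myosin binding protein, at 2.56 to 8.65 TPM (median 5.63) against 37.8, 11.6, 60.2, 22.1 and 58.7 TPM (log2 fold change -2.40 ± 0.35 (SE), adjusted p = 1.4e-05), without. The perinatal myosin Myh8 varied within each muscle, at 0.341 to 54.6 TPM (median 27.2) in diaphragm and 0.74, 52, 1.53, 61.2 and 57.8 TPM in tibialis anterior (adjusted p = 0.852). The embryonic myosin Myh3 did as well, at 0.0654 to 8.82 TPM (median 3.05) and 3.34, 2.74, 2.31, 4.54 and 4.91 TPM (adjusted p = 0.576). With the replicate block both passed, at -1.01 (adjusted p = 0.00382) for Myh8 and -1.30 (adjusted p = 0.00109) for Myh3, in the 5 pairs. The libraries numbered 61 and 63 had the lowest Myh8 of each muscle, at 0.712 and 0.341 TPM in diaphragm and 0.74 and 1.53 TPM in tibialis anterior. By contrast, the 3 diaphragm libraries with Pcna-ps2 gave 0.76 for Myh3 (adjusted p = 0.004). Myl4, the atrial light chain, did not pass (adjusted p = 0.115) and was lower with the replicate block, at -0.28 (adjusted p = 0.0296).

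Genes of carbohydrate and of fat use went in opposite directions. Of 26 genes of glycolysis and glycogen metabolism 23 were lower in diaphragm and 2 higher (median -1.23), beside 11.2% and 70.5% of all genes tested, and 25 were lower and none higher after median-ratio scaling. The regulatory subunits of phosphorylase kinase, the enzyme that turns on glycogen breakdown, had the largest decreases, with Phka1 at 39 to 57.6 TPM (median 46.8) against 248, 191, 246, 264 and 203 TPM (log2 fold change -2.27 ± 0.10 (SE), adjusted p = 7.26e-11). Phkb was at 21.6 to 27.5 TPM (median 23.4) against 132, 90.9, 128, 123 and 111 TPM (log2 fold change -2.23 ± 0.08 (SE), adjusted p = 1.86e-11). Gapdh, a glycolytic enzyme often used to normalise, was at 772 to 1104 TPM (median 929) against 2114, 1688, 2126, 2343 and 2120.1 TPM (log2 fold change -1.15 ± 0.10 (SE), adjusted p = 4.04e-08). Hk2, which traps glucose in the fibre, and Gbe1, which branches glycogen, were higher by 0.47 and 0.21, near or below the median gene, and turned to -0.09 and -0.34 after median-ratio scaling. Without the tibialis anterior library numbered 61, Gbe1 did not pass (adjusted p = 0.0799). With only the diaphragm libraries low in Pcna-ps2, 1 of the 26 genes was higher, 23 lower and 2 not called. Slc16a3 (chr11:120948480-120960868), the carrier MCT4 that exports lactate, was outside the list and the fourth largest decrease by the naming rule. It was at 1.34 to 2.62 TPM (median 2.03) in diaphragm against 84.1, 82.5, 101, 79 and 95.7 TPM in tibialis anterior (log2 fold change -4.91 ± 0.11 (SE), adjusted p = 9.78e-14). Soleus held it at 1.45 ± 0.413 TPM (SD, n = 5). Tbc1d1, which holds glucose transporters inside the cell, was at 2.9 to 5.12 TPM (median 3.97) against 54.9, 65.1, 60.6, 49.2 and 48.7 TPM (log2 fold change -3.54 ± 0.10 (SE), adjusted p = 1.05e-12).

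Most fatty acid genes were higher in diaphragm. Of 26 genes of fatty acid use 25 were higher in diaphragm and 1 lower (median 1.26), beside 70.5% and 11.2% of all genes tested, and 23 were higher and 1 lower after median-ratio scaling. Fabp3, which carries fatty acids through the cytoplasm, was at 3979 to 5881 TPM (median 5113) against 682, 1153, 898, 696 and 1074 TPM (log2 fold change 2.53 ± 0.13 (SE), adjusted p = 2.98e-10). Lpl, which frees fatty acids from circulating lipoproteins, was at 772 to 1063 TPM (median 979) against 137, 224, 139, 157 and 201 TPM (log2 fold change 2.51 ± 0.11 (SE), adjusted p = 1.02e-10). The smallest increase was in Mlycd, which degrades malonyl-CoA, a brake on fatty acid import (0.66 ± 0.09), which did not pass after median-ratio scaling (0.10). Ucp3, an uncoupling protein of the mitochondrial inner membrane, was the member that fell, at 25.8 to 46.9 TPM (median 29) against 83, 61.8, 95.3, 81.4 and 66.5 TPM (log2 fold change -1.23 ± 0.16 (SE), adjusted p = 3.54e-06), with no overlap.

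The direction of the genes of oxidative phosphorylation depended on the scaling. The list of 82 tested genes was drawn by symbol, so beside nuclear-encoded subunits it can hold related genes, such as Cycs and Cox7a2l, and pseudogenes. As deposited, 73 of the 82 were higher in diaphragm and none lower, beside 70.5% and 11.2% of all genes. However, the median log2 fold change of the list, 0.36, lay below the 0.44 of all genes tested. After median-ratio scaling 3 were higher and 56 lower (median -0.21), and quantile normalization gave 30 higher and 13 lower. Cox8a and Cox6a1, the widely expressed forms of cytochrome oxidase subunits, passed as higher on each scale. Cox8a was at 125 to 166 TPM (median 151) against 44.4, 56.6, 41.4, 39.5 and 55.1 TPM (log2 fold change 1.64 ± 0.09 (SE), adjusted p = 1.09e-09). Cox6a1 was at 66.3 to 103 TPM (median 85.5) against 29.4, 31.7, 30.9, 27 and 37.1 TPM (log2 fold change 1.41 ± 0.11 (SE), adjusted p = 1.33e-08). Their muscle forms, looked at after their values were seen, changed less. Cox8b was at 1889 to 2742 TPM (median 2153) against 1211, 1383, 1305, 1114 and 1241 TPM (0.82 ± 0.08), and Cox6a2 at 2173 to 3016 TPM (median 2356) against 1415, 1644, 1394, 1320.4 and 1628 TPM (0.71 ± 0.08), which did not pass after median-ratio scaling (0.14). The share of mitochondrially encoded transcripts, given at the outset, did not pass its test. Mb, myoglobin, the oxygen store of the fibre, was at 10819 to 14489 TPM (median 12417) against 5586, 8011, 6207, 6227 and 5854 TPM (log2 fold change 0.98 ± 0.09 (SE), adjusted p = 9.08e-08). Of 12 genes of oxygen supply and capillaries, Mb among them, 11 were higher and none lower (median 0.83), beside 70.5% and 11.2% of all genes tested, against 8 higher and 1 lower after median-ratio scaling. Kdr, the main receptor for vascular endothelial growth factor, changed the most of these, by 1.28 ± 0.13.

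**Figure D3:**
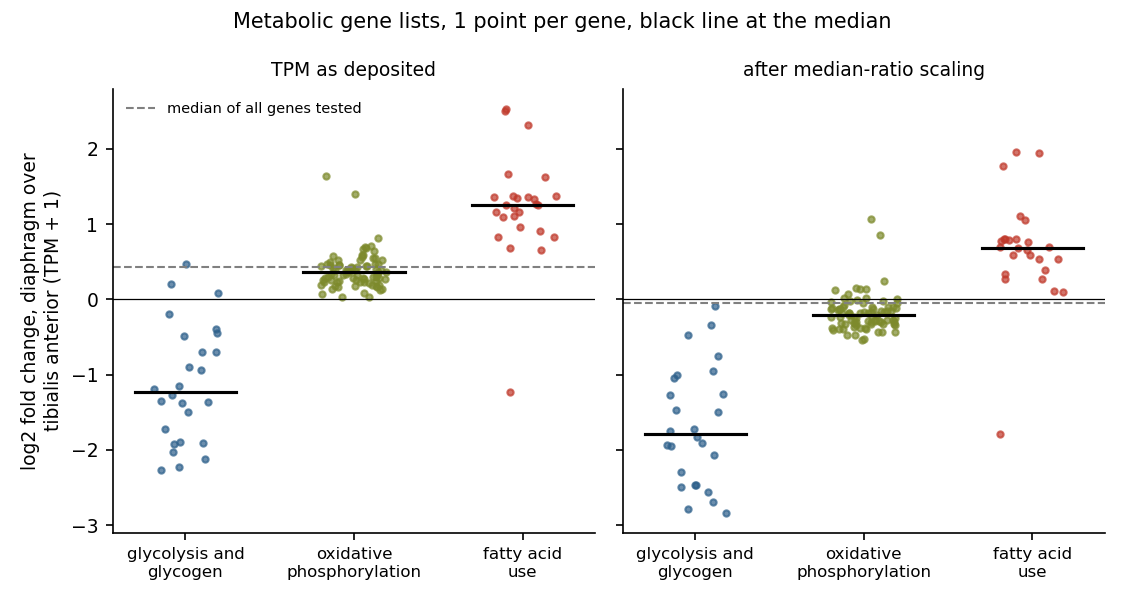
log2 fold change of diaphragm over tibialis anterior (vertical axis, log2 of TPM + 1) for each tested gene of 3 lists, from TPM as deposited (left) and after median-ratio scaling (right), with a black line at the list's median and a dashed line at the median of all genes tested. Glycolysis lies below and fatty acid use above the dashed line on both scales, while oxidative phosphorylation moves from 0.36 to -0.21 with the scale.

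Of 25 regulators of fibre type and muscle identity 14 were higher in diaphragm, 5 lower and 6 not called, beside 70.5% and 11.2% of all genes tested. After median-ratio scaling 6 were higher and 11 lower, and with the replicate block 13 of 24 tested were higher, 9 lower and 2 not called. Prox1, Pax7 and Myf5 were below 1 TPM in every tibialis anterior library. Among the other 22 genes 11 were higher and 5 lower, a smaller share of higher genes than the 7443 of 11029 counted likewise. Prox1, a homeobox factor known for promoting slow fibre genes, was at 2.82 to 6.76 TPM (median 3.96) against 0.241, 0.345, 0.291, 0.219 and 0.452 TPM (log2 fold change 1.98 ± 0.13). Ppara, a nuclear receptor that drives fatty acid oxidation genes, was at 18 to 38.4 TPM (median 23.2) against 5.9, 8.16, 6.12, 5.76 and 9.56 TPM (log2 fold change 1.73 ± 0.17 (SE), adjusted p = 2.82e-07). Sox6, which represses slow fibre genes, was at 10.1 to 13.9 TPM (median 11.4) against 28, 20.8, 28.3, 26.4 and 25.3 TPM (log2 fold change -1.06 ± 0.08 (SE), adjusted p = 1.83e-08). Myod1, the myogenic factor more abundant in fast muscle, was at 6.19 to 12.8 TPM (median 8.94) against 17.7, 12.4, 18.2, 26.8 and 20.6 TPM (log2 fold change -0.97 ± 0.16 (SE), adjusted p = 4.9e-05). Ppara, Sox6 and Myod1 kept their direction after median-ratio scaling and quantile normalization.

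The Hox genes are described by their paralogue group, which follows their place along the cluster. Of 39 Hox genes listed, 22 were tested, and the other 17 stayed at or below 1.73 TPM in every library of both muscles. Of the 15 tested genes of paralogue groups 1 to 8, which mark the front of the trunk, 13 were higher in diaphragm, none lower, and Hoxa7 and Hoxb7 did not pass (adjusted p = 0.184 and 0.128). Hoxa7 passed with the replicate block, at 0.23 (adjusted p = 0.0216), and both were lower under quantile normalization (-0.47 and -0.58). Hoxa2, Hoxb2, Hoxb3 and Hoxb4 of these were below 1 TPM in every tibialis anterior library. Of the other 11, 9 were higher, against 7443 of the 11029 genes counted likewise. Under median-ratio scaling the 15 genes gave 11 higher and 1 lower, and under quantile normalization 6 higher and 2 lower. The 7 tested genes of groups 9 to 13, which mark the rear of the trunk and the hind limb, did not exceed 0.484 TPM in any diaphragm library and were at 1.40 TPM or more in each tibialis anterior library. All 7 passed the filter through tibialis anterior alone, so their lower level in diaphragm is a description and their count is no support for it. The largest decrease was in Hoxc10 (chr15:102966796-102971893), at 0 to 0.0511 TPM (median 0.0261) in diaphragm against 62.3, 56.5, 70.8, 67.8 and 62.9 TPM in tibialis anterior (log2 fold change -5.98 ± 0.05). In the 5 soleus libraries it stood at 49.5 to 58.3 TPM. Hoxa10 was at 0.0151 to 0.321 TPM (median 0.0454) against 7.9, 7.55, 8.41, 7.13 and 7.83 TPM (log2 fold change -3.01 ± 0.07). Hoxa9 changed by -2.27 ± 0.08 and Hoxc9 by -2.03 ± 0.05. Hoxc11, Hoxa13 and Hoxa11 were listed at 0 in all 9 diaphragm libraries and stood at 3.2 to 5.14 TPM, 1.72 to 2.93 TPM and 1.4 to 2.21 TPM in tibialis anterior. Among the genes of groups 9 to 13 that were too low to test, Hoxd9 and Hoxd10, looked at after their values were seen, did not have this order, with Hoxd9 at 0.783 to 1.73 TPM (median 0.927) against 0.501 to 0.79 TPM and Hoxd10 at 0.132 to 0.536 TPM (median 0.163) against 0.0265 to 0.107 TPM. On the other side, Hoxa5 (chr6:52201754-52204587) was at 9.83 to 15 TPM (median 11.3) in diaphragm against 1.31, 1.54, 1.85, 1.83 and 1.61 TPM (log2 fold change 2.28 ± 0.09 (SE), adjusted p = 2.86e-11). Hoxc5 was at 6.31 to 9.71 TPM (median 7.43) against 1.03, 1.17, 1.07, 1.08 and 0.851 TPM (log2 fold change 2.14 ± 0.09 (SE), adjusted p = 7.77e-11), without overlap in either. Hoxb4 was at 3.94 to 4.84 TPM (median 4.43) against 0.45, 0.357, 0.421, 0.415 and 0.436 TPM (log2 fold change 1.93 ± 0.05). Hoxc6 and Hoxa4 rose by 1.93 ± 0.10 and 1.52 ± 0.09. Transcripts of neighbouring Hox genes overlap, Hoxc4, Hoxc5 and Hoxc6 among them, and the strand rule of the authors' counting is not given in the sources used here, so values of single members of a cluster are uncertain.

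Soleus, a hind limb muscle rich in slow fibres, was set beside both muscles as a description, with no test. In the soleus, which the filter did not use, all 5 libraries lay above all diaphragm libraries in each of the 7 tested Hox genes of groups 9 to 13. In the 13 higher Hox genes of groups 1 to 8, the soleus mean lay between both muscles in 11 and above both in 2. For the slow-fibre genes the order was different, with the soleus mean above both muscles in 14 of 15, and for the fast-fibre genes it was below both in 13 of 15. The genes of fatty acid use had their soleus mean between both muscles in 17 of 26 and above both in 9.

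**Figure D4:**
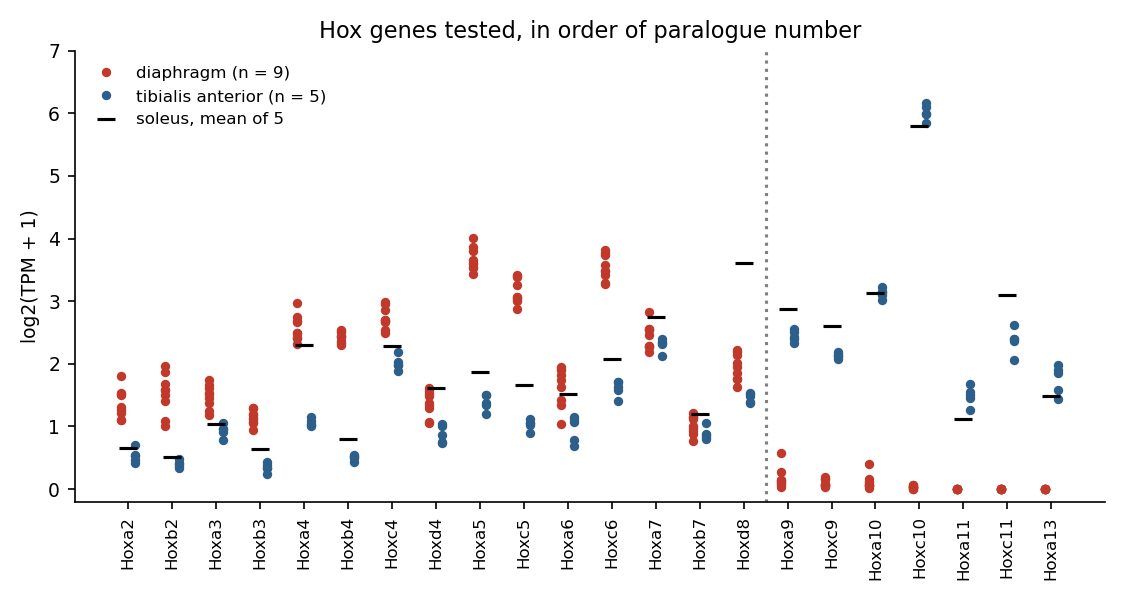
Level of each tested Hox gene (vertical axis, log2(TPM + 1)) in 9 diaphragm and 5 tibialis anterior libraries, in order of paralogue number, with the mean of 5 soleus libraries as a black dash and a dotted line between groups 8 and 9. To the right of the line, where every gene passed the filter through tibialis anterior alone, the diaphragm points lie at or near 0 and both leg muscles are expressed, with Hoxc10 highest.

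Other patterning genes were tested in 24 of 34 cases, and 17 were higher in diaphragm (beside 70.5% of all genes tested), 4 lower and 3 not called, against 14 higher and 6 lower after median-ratio scaling. Of the 24, 8 were below 1 TPM in every tibialis anterior library (Tbx18, Pax3, En1, Gata4, Gata6, Wt1, Shox2 and Emx2) and Irx3 in every diaphragm library. Among the other 15 genes 9 were higher and 3 lower, a smaller share of higher genes than the 7443 of 11029 counted likewise. Shox2, a homeobox gene known from the proximal limb and the heart, was at 19 to 24.1 TPM (median 21.6) against 0.509, 0.699, 0.463, 0.542 and 0.514 TPM (log2 fold change 3.86 ± 0.06). Soleus stood near tibialis anterior, at 0.942 ± 0.301 TPM (SD, n = 5). Barx2, a homeobox gene of muscle progenitors, was at 17.2 to 34.2 TPM (median 27.5) against 1.64, 2.06, 1.79, 1.63 and 2.42 TPM (log2 fold change 3.27 ± 0.13 (SE), adjusted p = 2.62e-11). Tbx3, a T-box factor, was at 16.7 to 23.2 TPM (median 20) against 1.41, 1.33, 1.48, 1.82 and 3.14 TPM (log2 fold change 2.92 ± 0.12 (SE), adjusted p = 6.79e-11). Pax3, the factor of the migrating muscle precursors that also marks satellite cells of the diaphragm, was at 1.98 to 4 TPM (median 2.31) against 0.0467, 0.148, 0.11, 0.196 and 0.142 TPM (log2 fold change 1.62 ± 0.11). In soleus it stood at 0.00177 ± 0.00396 TPM (SD, n = 5), so the diaphragm was highest of the 3 muscles. Gata4 and Gata6 are zinc finger factors of heart and of the mesenchyme from which the diaphragm forms. Gata4 was at 1.45 to 2.56 TPM (median 2) against 0 to 0.0125 TPM (log2 fold change 1.62 ± 0.09). Gata6 was at 1.92 to 4.28 TPM (median 2.65) against 0.137 to 0.274 TPM (log2 fold change 1.72 ± 0.14). Wt1, a factor of mesothelium and of that mesenchyme, was at 2.14 to 5.65 TPM (median 3.01) against 0 to 0.00777 TPM. The decreases were in Irx3, at 0.287 to 0.642 TPM (median 0.474) against 3.6, 4.21, 3.07, 4.32 and 3.13 TPM (log2 fold change -1.64 ± 0.08), and in Lbx1, Six2 and Tbx15. Lbx1, a factor of limb-bound muscle precursors, was at 7.97 to 10.5 TPM (median 9.07) against 31.4, 26.7, 24.4, 26.9 and 30.7 TPM (log2 fold change -1.52 ± 0.07 (SE), adjusted p = 1.15e-10). Six2 (-0.57 ± 0.13) and Tbx15 (-0.43 ± 0.09) overlapped between the muscles. Tbx4, a hind limb factor, was at 1.08 to 1.78 TPM (median 1.28) against 1.3, 1.59, 1.17, 1.55 and 0.987 TPM and did not pass (adjusted p = 0.988). It passed as lower after median-ratio scaling, at -0.33 (adjusted p = 0.00256). Pitx3 did not pass either (adjusted p = 0.176).

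Markers of the cells that cover the diaphragm were present in its libraries and nearly absent from tibialis anterior. The diaphragm is bounded on both faces by mesothelium, and the 12 mesothelial markers had summed levels of 112.6 to 332.8 TPM in diaphragm against 0.936 to 1.69 TPM in tibialis anterior. None of the 12 reached 1 TPM in any tibialis anterior library, so all passed the filter through the diaphragm alone, and their number in one direction is no support. Upk3b was at 27.1 to 84.5 TPM (median 39.3) against 0.0409, 0, 0.0161, 0 and 0 TPM (log2 fold change 5.50 ± 0.21). Msln, mesothelin, was at 25.8 to 72.3 TPM (median 45.3) against 0, 0.251, 0.134, 0 and 0.138 TPM (log2 fold change 5.38 ± 0.18). Slpi, a secreted protease inhibitor, and C3, the central component of complement, were also among the 12 largest increases. Slpi, below 1 TPM in every tibialis anterior library, was at 19.6 to 90.4 TPM (median 68.9) against 0.367, 0.0817, 0.481, 0.246 and 0.0825 TPM (log2 fold change 5.38 ± 0.35). C3 was at 315 to 801 TPM (median 465) against 7.64, 6.98, 5.63, 15.2 and 10.5 TPM (log2 fold change 5.56 ± 0.24 (SE), adjusted p = 6.92e-11). Of 12 liver genes 9 were tested, 7 of them below 1 TPM in every tibialis anterior library, and their sums were given at the outset. Alb, albumin, ranged from 0.107 to 5724 TPM in diaphragm, with a median of 10.1 TPM, and overlapped with tibialis anterior, at 0.0243 to 0.207 TPM.

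Most blood, immune and connective tissue markers tested were higher as well, beside the 70.5% of all genes. All 5 red cell genes were higher (sums of 2406 to 10579 TPM against 308.8 to 1090 TPM). So were the 9 macrophage genes of 12 that reached 1 TPM in both muscles (sums of all 12 at 186 to 363 TPM against 34.2 to 52.3 TPM), led by Lyve1, a marker of resident perivascular macrophages (3.63 ± 0.21), and C1qa (2.99 ± 0.24). Of 9 B cell and plasma cell genes 6 were tested, 4 of them below 1 TPM in every tibialis anterior library, with sums of 23.7 to 2174 TPM against 45.0 to 204.9 TPM, which overlapped. Of these, 2 diaphragm libraries at 1192 and 2174 TPM lay far above the others. Of 8 neutrophil genes 3 were tested and called higher, but 2 after median-ratio scaling and none under quantile normalization, and Csf3r was below 1 TPM in every tibialis anterior library. The neutrophil sums overlapped, at 4.12 to 25.8 TPM against 1.28 to 4.28 TPM. All 10 fibroblast genes were higher (1061 to 1536 TPM against 241 to 355 TPM). Pi16, a marker of adventitial fibroblasts, was at 35.4 to 63.9 TPM (median 47.8) against 3.89, 5.67, 3.48, 4.18 and 5.47 TPM (log2 fold change 3.12 ± 0.13 (SE), adjusted p = 4.34e-11). Adipocyte genes gave 7 higher and 1 lower of 8 tested, Adrb3 being below 1 TPM in every tibialis anterior library and the lower one being Car3, which muscle fibres also express (-2.13 ± 0.29). With Car3 included the sums overlapped (977.5 to 2996 TPM against 1848 to 3270 TPM). Cfd, adipsin, was at 102 to 928 TPM (median 224) against 19.1, 35.4, 18.9, 27.6 and 45.5 TPM (log2 fold change 3.18 ± 0.42 (SE), adjusted p = 5.25e-06). The 7 tested Schwann cell genes were higher, 3 of them under quantile normalization (sums of all 8 at 93.3 to 133 TPM against 31.6 to 54.6 TPM). Of 8 smooth muscle and pericyte genes 7 were higher (319 to 420.8 TPM against 222 to 297 TPM), but 1 of 8 after median-ratio scaling. The part of these cells in the differences between the muscles was not tested.

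**Figure D5:**
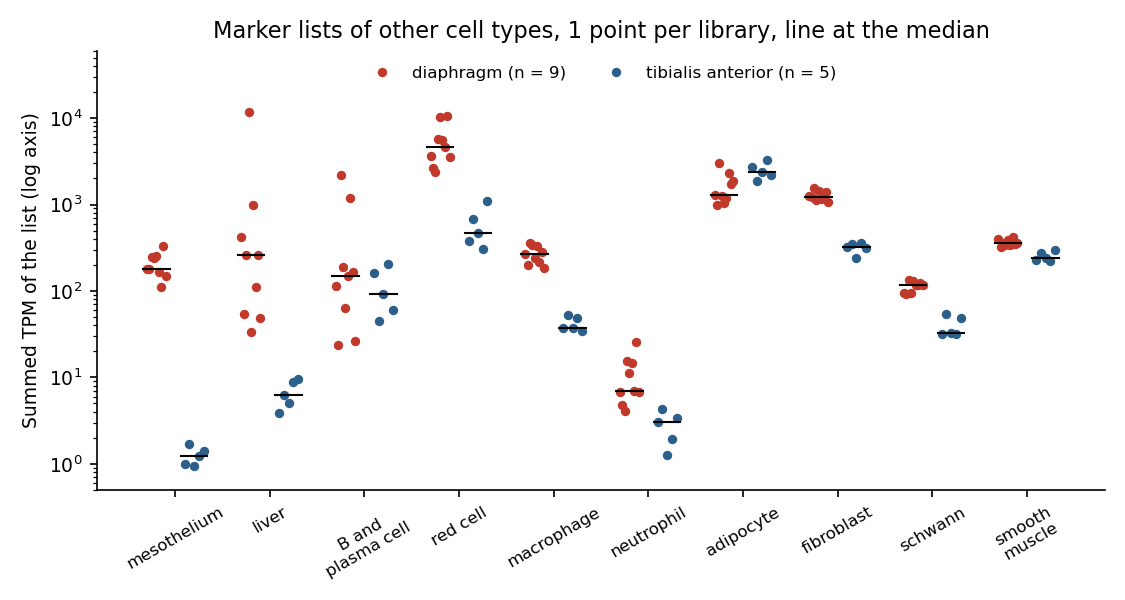
Summed TPM of marker lists of other cell types (vertical axis, log axis) in each of 9 diaphragm and 5 tibialis anterior libraries, with a line at each median. The mesothelial sums differ without overlap, 1 diaphragm library lies at 11646 TPM for liver, and the B and plasma cell, neutrophil and adipocyte sums overlap between muscles.

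Most collagen genes were higher in diaphragm. Of 29 tested 25 were higher and 3 lower, beside the 70.5% and 11.2% of all genes, and 22 were higher and 3 lower after median-ratio scaling. Of the 29, 6 were below 1 TPM in every tibialis anterior library. Among the other 23 there were 19 higher and 3 lower, beside 7443 and 1347 of the 11029 genes counted likewise. Col14a1, which binds collagen fibrils, was at 24.6 to 43.6 TPM (median 28.9) against 2.18, 1.35, 1.03, 1.97 and 1.79 TPM (log2 fold change 3.57 ± 0.14 (SE), adjusted p = 2.62e-11). Col6a6, of the pericellular collagen family and below 1 TPM in every tibialis anterior library, was at 8.41 to 16.8 TPM (median 10.4) against 0.814, 0.463, 0.459, 0.708 and 0.849 TPM (log2 fold change 2.90 ± 0.13). The lower ones included Col22a1, a collagen of the junction between muscle and tendon, at 0.848 to 2.36 TPM (median 1.76) against 5.91, 3.19, 4.17, 4.33 and 2.82 TPM (log2 fold change -0.90 ± 0.15 (SE), adjusted p = 4.06e-05), and Col7a1 (-1.05 ± 0.08). Of 9 tendon genes 4 were higher (6 without the library rich in liver transcripts, 2 after median-ratio scaling) and 1 lower, again Col22a1, a lower share of increases than among all genes. Prg4, a lubricant of sliding surfaces, was at 10.3 to 47.8 TPM (median 40.2) against 3.67, 4.22, 3.84, 6.8 and 2.93 TPM (log2 fold change 2.57 ± 0.31 (SE), adjusted p = 2.25e-06).

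At the neuromuscular junction 8 of 12 genes were higher, near the 70.5% of all genes tested, and 2 lower, and after median-ratio scaling 5 and 5. Colq, the collagen tail that fixes acetylcholinesterase in the synapse, was at 9.98 to 17.9 TPM (median 12.3) against 2.38, 2.35, 2.93, 2.52 and 2.52 TPM (log2 fold change 1.92 ± 0.12 (SE), adjusted p = 1.58e-09). The enzyme itself, Ache, was lower, at 7.43 to 9.32 TPM (median 7.96) against 15.7, 12.3, 13.4, 16.7 and 13.9 TPM (log2 fold change -0.74 ± 0.07 (SE), adjusted p = 2.69e-07). Musk, the receptor kinase that organises the synapse, was higher (1.29 ± 0.09), and Chrne, the adult subunit of the acetylcholine receptor, lower (-0.56 ± 0.11).

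Of 17 growth and atrophy genes tested 13 were higher, not far above the 70.5% of all genes, and 3 lower, and after median-ratio scaling 12 were higher and 4 lower. Bmp4, a secreted growth factor, was at 12.9 to 20.1 TPM (median 16) against 3.44, 3.25, 3.37, 3.75 and 3.04 TPM (log2 fold change 1.96 ± 0.07 (SE), adjusted p = 2.36e-11). Igf1, a growth factor that enlarges fibres, was at 5.51 to 17 TPM (median 6.12) against 1.97, 1.36, 0.958, 1.18 and 1.47 TPM (log2 fold change 1.78 ± 0.20 (SE), adjusted p = 9.72e-07). The highest Igf1 value, 17 TPM, came from the library rich in liver transcripts, and the next was 7.79 TPM. Mstn, myostatin, which limits fibre growth, was at 8.57 to 19.7 TPM (median 15.1) against 15.7, 16.9, 26.7, 19 and 20.7 TPM (log2 fold change -0.37 ± 0.16 (SE), adjusted p = 0.042), with overlap. It did not pass with the replicate block (adjusted p = 0.0905). Nor did it pass without any 1 of 8 libraries (adjusted p up to 0.145) or with the 6 diaphragm libraries low in Pcna-ps2 (adjusted p = 0.0761). Fibcd1, the gene the study is about, was too low to be tested in these muscles, at no more than 0.0108 TPM in diaphragm and 0.0102 TPM in tibialis anterior. Itga2b, an integrin subunit, was also not tested, at 0.617 to 3.81 TPM (median 0.999) and 0.142 to 0.335 TPM. In a list of genes that respond to load, 5 of 14 were higher and 4 lower, beside 70.5% and 11.2% of all genes tested, and after median-ratio scaling 1 higher and 5 lower (median -0.54). Myom3, the M-band protein of slow and intermediate fibres, was at 137 to 222 TPM (median 175) against 7.83, 17.4, 7.36, 9.09 and 24.3 TPM (log2 fold change 3.76 ± 0.23 (SE), adjusted p = 1.55e-09). Ankrd1, a stretch-responsive repressor, was at 4.86 to 13.8 TPM (median 7.91) against 18.8, 27.4, 24.8, 14.7 and 65.1 TPM (log2 fold change -1.59 ± 0.30 (SE), adjusted p = 0.00017). Of 18 clock genes 5 were higher, again below the share of all genes, 4 lower and 9 not called, and 9 were lower and none higher after median-ratio scaling, with Rora the largest change (-1.31 ± 0.08). Of 8 genes often used for normalisation 6 were higher, near the share of all genes, and 2 lower, and after median-ratio scaling 3 were higher and 4 lower.

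Further genes among the 12 largest decreases had no list. Igfn1, a Z-disc protein, was at 0.0212 to 0.121 TPM (median 0.0388) in diaphragm against 14.6, 18, 19.4, 55.4 and 13.6 TPM in tibialis anterior (log2 fold change -4.38 ± 0.23). It was below 1 TPM in every diaphragm library, and 1 tibialis anterior library lay well above the rest. Mettl11b, an N-terminal methyltransferase, was at 0.706 to 2.32 TPM (median 0.957) against 29.4, 24.8, 34.9, 35.3 and 24.5 TPM (log2 fold change -3.88 ± 0.15 (SE), adjusted p = 2.36e-11). Tspan8, a tetraspanin, was at 3.58 to 7.55 TPM (median 4.59) against 60.3, 42.8, 68.9, 76.8 and 54.3 TPM (log2 fold change -3.30 ± 0.17 (SE), adjusted p = 3.19e-10). In Mettl11b and Tspan8 the muscles did not overlap.

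The comparison was repeated with the 6 diaphragm libraries at Pcna-ps2 of 3 TPM or less, since no tibialis anterior library of this tumour was above that level. Of 12006 genes tested 9684 (80.7%) were called, 8136 higher in diaphragm and 1548 lower, and after median-ratio scaling 4198 were higher and 5088 lower. Of the 9795 genes called with all libraries that could be tested again, 9386 (95.8%) were called in the same direction and none in the opposite one, and both fits share these libraries. Sln, Myh7 and Hoxa5 changed by 8.44, 7.67 and 2.33 there, and Myh4, Slc16a3 and Hoxc10 by -6.60, -5.00 and -5.98. In the 3 remaining libraries against the same tibialis anterior group 9932 of 12128 genes were called.

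The same muscles of mice with the cachectic melanoma, 10 diaphragm mock and 5 tibialis anterior libraries, share no library with those above. There 6923 of 12905 genes (53.6%) were called, 5419 higher and 1504 lower, and after median-ratio scaling 3863 were higher and 4266 lower. Pcna-ps2 stood at 5.60 to 13.6 TPM in the cachectic tibialis anterior libraries and at 0 to 13.4 TPM in the cachectic diaphragm libraries, and its part in these calls was not tested. Of 10024 genes called in non-cachectic mice and tested in both, 5998 (59.8%) were called in the same direction and 43 in the opposite one. Of the 2614 among them that changed 2-fold or more, 2471 (94.5%) were called in the same direction. Sln, Myh7, Tnnt1 and Hoxa5 changed by 6.81, 7.14, 6.05 and 2.02 in those mice, and Myh4, Actn3, Slc16a3 and Hoxc10 by -5.46, -5.04, -4.86 and -6.60. Some fast genes did not pass there, with Myh1 at 0.62 (adjusted p = 0.099), Mylpf at -0.21 (adjusted p = 0.383) and Tnnc2 at -0.17 (adjusted p = 0.29). The slow gene Mybpc1 was higher, by 0.65 (adjusted p = 0.0128). Whether the muscle difference itself differed between the tumours was not tested.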

How the data were processed

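RNA-seq was made from bulk RNA of dissected muscle, with 1 library per sample. The authors aligned paired reads to mouse GRCm38 (mm10 per the labels) with CLC Genomics Workbench and deposited TPM for 47643 gene symbols in 59 libraries, in which each column sums to 1000000. The library kit and sequencer are described differently in the labels and in the study's methods, the gene annotation and the strand rule of counting are not given in the sources used here, and TPM keeps no read counts, so depth is unknown.

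Groups came from the labels. Genes with at least 1 TPM in as many libraries as the smaller group holds were tested on log2(TPM + 1) with limma 3.58.1 in R 4.3.3 (trended eBayes, two-sided, Benjamini-Hochberg, called under 0.05), in place of the study's rank tests, which were run as an alternative. Shares were compared by exact permutation over all 2002 regroupings. The pipeline was tested on simulated data. Nothing states that libraries of a group came from separate cages or days, so p-values measure only the spread between these libraries. The members and gene lists were chosen with earlier results of these data known. Named genes were the 12 largest increases and 12 largest decreases of called genes whose mean reached 5 TPM, the tested members of the fibre, developmental, Hox and patterning lists, the 2 highest and 2 lowest called members of each other list, Fibcd1 and Itga2b. Mrln, Cox6a2, Cox8b, Hoxd9, Hoxd10, Pax7, Myf5 and Adrb3 lie outside that rule, and 1 gene is not reported here. Libraries of both muscles share the numbers 61 to 65. Deviations from the group means correlated at 0.160 to 0.311 within numbers in 5 of 5 pairs and at -0.356 to 0.217 between numbers. The numbers were therefore taken to pair the samples. The main fit, which gave the counts and adjusted p-values unless stated otherwise, did not use this pairing. A fit with the number as a block was an alternative. Positions are those of GENCODE M21 and promoter windows those of RefSeq, both GRCm38, and 96.9% of the genes tested matched GENCODE symbols. Pseudocounts, filters, scaling, weights and single libraries left out were the other alternatives.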

Additional observations from a re-analysis of the deposited data

Results flagged for a closer look

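In 17 of 278 sets of 5 or 9 values, 1 library at an end of the range stood farther from its neighbour than Dixon's 95% limit, and chance alone marks about 1 in 20. In diaphragm the high values were Bmp4 at 20.1 TPM (next 16.2 TPM), Igf1 at 17.0 TPM (next 7.79 TPM), Pax3 at 4.00 TPM (next 2.78 TPM), Mettl11b at 2.32 TPM (next 1.35 TPM), Hoxa9 at 0.484 TPM (next 0.204 TPM), Hoxa10 at 0.321 TPM (next 0.118 TPM) and Igfn1 at 0.121 TPM (next 0.0606 TPM). Igf1 belonged to the library rich in liver transcripts, which also had the low value of Lpl, 772 TPM (next 911 TPM). Bmp4 and Pax3 came from 1 library and Mettl11b, Hoxa9 and Hoxa10 from another, both among the 3 with Pcna-ps2. Igfn1 came from the library that also had the low value of Myh1, 3184 TPM (next 3981 TPM), and the lowest Myh1 share, 45.1%.

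In tibialis anterior the library numbered 62 had the low values of Tnnt3, 13049 TPM (next 16477 TPM), and Mybpc2, 1285 TPM (next 1972 TPM), and the high values of the mitochondrial share, 51.7% (next 48.1%), and of the share of the 10 most abundant genes, 49.1% (next 46.5%). It also held the lowest Myh4 share, 51.7%. The library numbered 64 had the high value of Igfn1, 55.4 TPM (next 19.4 TPM), and the low value of Mybpc1, 1633 TPM (next 1788 TPM). Wt1 was at 0.00777 TPM in 1 library and listed at 0 in the other 4. The library numbered 63 had the low value of Myf5, 0.382 TPM (next 0.508 TPM).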

How the results depend on the processing

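The number of genes called changed by more than 1.5 times with a stricter filter or the study's own thresholds. A mean of at least 5 TPM gave 6343 calls among all libraries, 6144 among those low in Pcna-ps2 and 4386 in cachectic mice, where fewer genes were tested, and the unadjusted p under 0.05 with a log2 change over 1 gave 2644, 2475 and 2152. Leaving out each library in turn gave 9888 to 10143, 9290 to 9744 and 6072 to 8647 calls. The paired analysis with the replicate block called 9668 of 11814 genes within the 5 shared numbers, and 10375 with the number as a random term, and beyond the calls named in the report it changed none of the genes named. Of 3411 single-gene results, 3334 kept their direction and their side of the threshold, 46 lost the call, 16 gained it and 15 reversed. Median-ratio scaling reversed Actn2 (-0.31), Gbe1 (-0.34), Hk2 (-0.0921) and Hoxa7 (-0.32). Quantile normalization reversed Gbe1 (-0.0748), Hoxa7 (-0.47), Hoxb7 (-0.58), Mybpc1 (0.0118), Myh1 (0.19), Pax7 (-0.0640), Pitx3 (-0.38), Tnni2 (0.0468) and Tnnt2 (-0.086). Myh3 reversed to 0.76 with only the 3 diaphragm libraries high in Pcna-ps2, and Myh8 to -1.01 with the replicate block. The cause of these changes was not tested. The differences in the 4 myosin shares kept their direction and their side of the threshold without any 1 library. Depth is unknown, so values near 0 TPM have no counting error here.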

Other observations

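The perinatal myosin Myh8, which did not pass the comparison of the muscles, differed by library number in both of them, a pattern noticed in the values and given with no test. In diaphragm it was at 0.712, 15.1, 0.341, 23.9 and 27.2 TPM in the libraries numbered 61 to 65, and in tibialis anterior at 0.74, 52, 1.53, 61.2 and 57.8 TPM in the same order. The other 4 diaphragm libraries lay between 50.5 and 54.6 TPM. Its neighbours in the cluster are close in sequence, and whether reads were divided between them was not tested.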
